A study of Rattus norvegicus with 16 samples.

Results

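The transcripts of 10 genes that make, break down or receive prostaglandins were followed in the rat knee through the development of arthritis induced by monosodium iodoacetate (MIA), a blocker of glycolysis that is toxic to chondrocytes. Ptgs1, Ptgs2, Ptges, Ptgds and Ptgis encode enzymes of synthesis, Hpgd an enzyme of breakdown, and Ptger1, Ptger2, Ptger3 and Ptger4 the receptors of prostaglandin E2. The genes were chosen by name from 18166 genes that the array annotation pairs with a probe set of exactly 1 symbol, and each was represented by its brightest probe set over 16 arrays. All 10 were on the array, and no filter on dim signals was applied. Ptger2 had a second probe set, which held equal values on all 16 arrays.

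Prostaglandin synthesis starts when phospholipases free arachidonate from membranes and the cyclooxygenases turn it into prostaglandin H2, the precursor from which separate synthases make prostaglandin E2, prostaglandin D2, prostacyclin and thromboxane. Prostaglandin E2 acts on receptors that couple to different G proteins, and it loses its activity when it is oxidised by the enzyme that Hpgd encodes. In the joint it is known as a mediator of inflammation and pain, and cyclooxygenase inhibitors are a common treatment of osteoarthritis.

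The arrays (Affymetrix Rat Gene 2.0 ST) came from the knees of male Wistar rats, 4 from intact, untreated animals and 4 each from animals killed 2, 14 and 28 days after 3 mg of MIA in saline was injected into the joint. RNA of 2 rats was pooled for each array according to the methods, so a group stands for 8 rats, whereas the labels give 1 animal number for each array. Age was not given in the sources used here, and the injection, the passing of time and MIA itself cannot be told apart, because the sole comparator was 1 group of animals that received no saline. The dissected tissue was meniscus and cartilage of tibia and femur, with some capsule and bone.

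Signals are on the log2 scale, and a difference is a difference of group means on that scale. Words such as higher, lower, rose and fell, and the word called, are used where limma, fitted to all 36685 probe sets and 16 arrays, gave a Benjamini-Hochberg adjusted p under 0.05, and each adjusted p given is from that fit or its stated repeat. There were 4 arrays per group, and errors are SD for levels and SE for differences. The 3 comparisons with intact share the same intact arrays. Array medians lay between 6.57 and 6.69, and r between pairs of arrays between 0.959 and 0.992. Markers of the labelled tissue were present: the mean signal of 11 chondrocyte markers was 8.25 to 8.91 on intact arrays, 6.67 to 8.38 on day 2 arrays, 7.18 to 7.89 on day 14 arrays and 7.90 to 8.93 on day 28 arrays. Skeletal muscle and bone marrow varied between arrays of 1 group. The mean of 8 skeletal muscle markers was 7.32 to 10.96 on intact arrays, 7.02 to 9.47 on day 2 arrays, 9.44 to 12.11 on day 14 arrays and 6.76 to 9.62 on day 28 arrays. The mean of 11 neutrophil and marrow granulocyte markers was 9.45 to 9.62 on intact arrays, 9.28 to 9.63 on day 2 arrays, 7.52 to 9.94 on day 14 arrays and 6.68 to 9.46 on day 28 arrays, with the highest value at days 14 and 28 on replicate 2. Since the tissue was measured in bulk, fewer cells of a type and less RNA per cell cannot be told apart for any transcript.

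Of the 10 genes, 9 passed the moderated F-test over the 3 days, against 31.0% of all probe sets, and Ptgds did not (adjusted p = 0.0605). At day 2, 8 of the 10 were called against intact, where 26.0% of all probe sets were called. Of these, 3 were higher (Hpgd, Ptger2 and Ptger4; 14.7% of all probe sets) and 5 were lower (Ptges, Ptgds, Ptgis, Ptger1 and Ptger3; 11.2% of all probe sets). At day 14, 7 were called against 15.1% of all probe sets, of which 4 were higher (Ptgs2, Hpgd, Ptger2 and Ptger4; 9.13% of all probe sets) and 3 lower (Ptgs1, Ptgis and Ptger3; 6.01% of all probe sets). At day 28, 7 were called against 14.2% of all probe sets, with 4 higher (Ptgs2, Ptges, Hpgd and Ptger4; 7.76% of all probe sets) and the same 3 lower as at day 14 (6.45% of all probe sets). Ptgis, Hpgd, Ptger3 and Ptger4 were called on all 3 days. The median absolute difference of the 10 genes was 0.54, 0.79 and 0.68 at days 2, 14 and 28, beside 0.22, 0.18 and 0.15 over all probe sets. The arrays of an MIA day and of the intact group did not overlap for 9 genes at day 2, 8 at day 14 and 7 at day 28, beside 27.0%, 18.4% and 18.2% of all probe sets. All probe sets include 17599 without a symbol and many dim ones, whereas all 10 genes but Ptgds were brighter than the median probe set. The share among probe sets as bright is therefore larger. With those below the median left out, Ptgds among them, 8764, 5965 and 5827 probe sets were still called at days 2, 14 and 28. The same fit called 7, 8 and 7 of the genes.

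**Figure D1:**
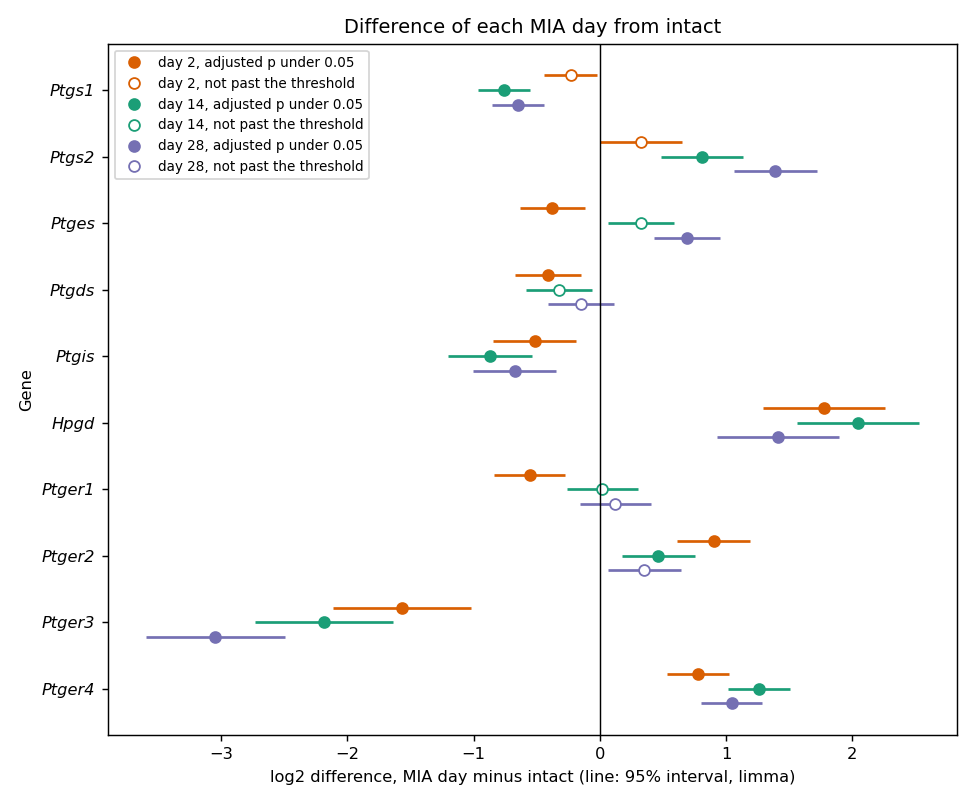
Log2 difference of MIA days 2, 14 and 28 from intact for each of the 10 genes, with 95% intervals from limma. Filled points passed an adjusted p of 0.05. Hpgd and Ptger4 lie to the right of 0 and Ptgis and Ptger3 to the left on all 3 days, and Ptges lies to the left at day 2 and to the right at day 28.

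The cyclooxygenases moved in opposite directions. Ptgs2, the inducible cyclooxygenase and the target of selective inhibitors, had a signal of 7.75, 7.88, 7.94 and 7.40 on the intact arrays, 8.02, 8.03, 8.02 and 8.21 on day 2 arrays, 8.41, 8.45, 8.63 and 8.73 on day 14 arrays and 9.58, 9.16, 8.79 and 9.01 on day 28 arrays. Every array of a later time lay above every array of all earlier times. Ptgs2 averaged 9.13 ± 0.34 at day 28 and 7.74 ± 0.24 in intact animals, 2.62-fold higher (difference 1.39 ± 0.15, adjusted p = 2.97e-05). The difference from intact was 0.81 ± 0.15 at day 14 (adjusted p = 0.00231) and 0.33 ± 0.15 at day 2, which did not pass (adjusted p = 0.132). Between neighbouring times, day 14 exceeded day 2 by 0.48 with adjusted p = 0.0466, a call that was lost on leaving out any of 12 single arrays (adjusted p = 0.0537 to 0.131) and that was made under 10 of 26 alternatives. Day 28 exceeded day 14 by 0.58 (adjusted p = 0.133).

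Ptgs1, the constitutive cyclooxygenase, had a signal of 10.06, 10.31, 10.17 and 10.25 on the intact arrays, 9.97, 9.90, 9.93 and 10.07 on day 2 arrays, 9.49, 9.66, 9.37 and 9.23 on day 14 arrays and 9.59, 9.69, 9.54 and 9.38 on day 28 arrays. All arrays of days 14 and 28 lay below all arrays of day 2 and of the intact group. The transcript fell by 0.76 ± 0.10 at day 14 (adjusted p = 0.000144) and by 0.65 ± 0.10 at day 28 (adjusted p = 0.000418) relative to intact. At day 2 the difference was -0.23 ± 0.10 (adjusted p = 0.101), and it passed only when the arrays were scaled by cyclic loess (adjusted p = 0.011). Days 28 and 14 differed by 0.11, with an interval of -0.10 to 0.32 (adjusted p = 0.693).

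Ptges, the inducible microsomal synthase that works with Ptgs2 to make prostaglandin E2, lay below intact at day 2 and above it at day 28. Its signal was 8.07, 7.76, 7.63 and 7.86 on the intact arrays, 7.62, 7.54, 7.51 and 7.15 on day 2 arrays, 8.15, 8.07, 8.19 and 8.22 on day 14 arrays and 8.63, 8.26, 8.51 and 8.68 on day 28 arrays. The 4 groups did not overlap, with day 2 lowest and day 28 highest, although the highest intact array and the lowest day 14 array lay close to each other. Ptges differed from intact by -0.37 ± 0.12 at day 2 (adjusted p = 0.0331), by 0.33 ± 0.12 at day 14 (adjusted p = 0.0869) and by 0.69 ± 0.12 at day 28 (adjusted p = 0.00134). Against day 2 the differences were 0.70 for day 14 (adjusted p = 0.000864) and 1.07 for day 28 (adjusted p = 1.32e-05), and the step between days 28 and 14 was 0.36 (adjusted p = 0.254). The day 2 call for Ptges was lost without intact replicate 1 or 4 or day 2 replicate 3 or 4 (adjusted p = 0.0529 to 0.105), and the day 14 difference passed without intact replicate 1 (adjusted p = 0.0445). Of 10 fibroblast and synovial lining markers, 6 were lower and 1 higher than intact on day 2 arrays (11.2% and 14.7% of all probe sets). Their mean signal was 11.36 to 11.44 on intact arrays, 10.87 to 11.28 on day 2 arrays, 11.50 to 11.70 on day 14 arrays and 11.49 to 11.68 on day 28 arrays. Their part in the Ptges difference was not tested.

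**Figure D2:**
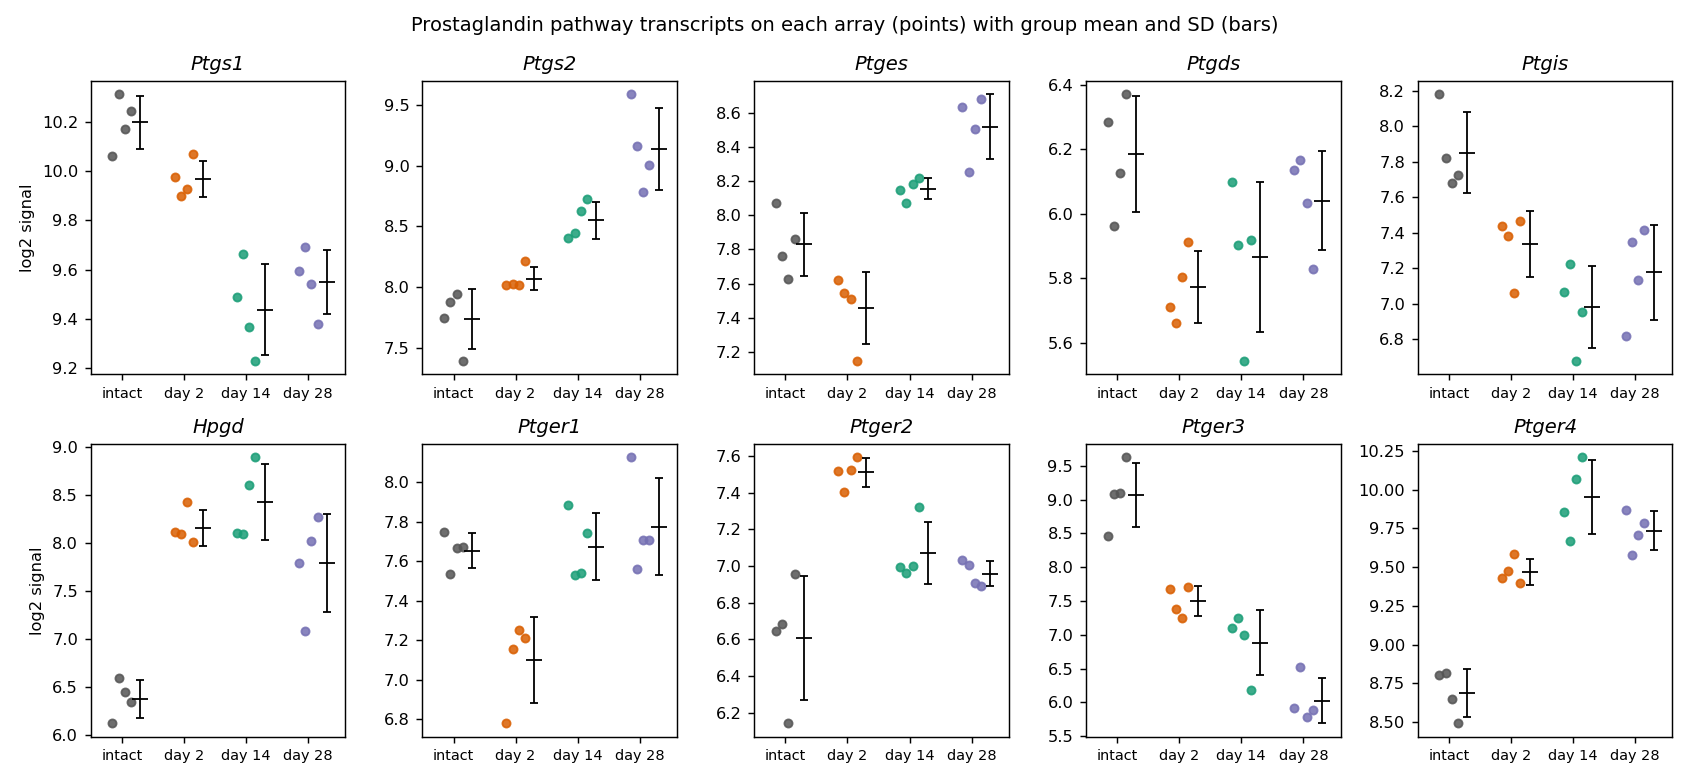
Log2 signal of each gene on each array, by group in order of time, with the group mean and SD to the right of the points (n = 4 arrays per group). The vertical axis differs between panels. The Ptgs2 arrays of each later time lie above those of all earlier times, Ptger3 was highest in the intact group, and Hpgd was lowest there.

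Ptgs2 and Ptges were both higher at day 28 than at day 2 and than in intact animals, and the 250 bases before their RefSeq transcription starts (build GRCr8) are shown for that reason. The Ptgs2 window is chr13:64713813-64714062 on the plus strand and the Ptges window chr3:34586988-34587237 on the minus strand, both 5′ to 3′, with motif matches in capitals.
Ptgs2: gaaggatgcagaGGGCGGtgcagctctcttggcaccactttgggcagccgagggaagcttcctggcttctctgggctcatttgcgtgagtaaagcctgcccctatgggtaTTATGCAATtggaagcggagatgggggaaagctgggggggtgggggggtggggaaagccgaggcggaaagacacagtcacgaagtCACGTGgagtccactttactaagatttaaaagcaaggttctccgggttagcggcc
Ptges: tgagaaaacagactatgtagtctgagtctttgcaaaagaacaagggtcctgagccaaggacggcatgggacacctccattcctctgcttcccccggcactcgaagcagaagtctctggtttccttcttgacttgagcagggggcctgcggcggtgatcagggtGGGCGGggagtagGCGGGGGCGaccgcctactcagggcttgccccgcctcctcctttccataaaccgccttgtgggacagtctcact
In the Ptgs2 window the capitals mark, from left to right, a GC box (GGGCGG), a C/EBP motif (TTNNGCAAT) and an E box (CACGTG), and in the Ptges window a GC box and an EGR1 motif (GCGGGGGCG). Both strands were searched. Of 33469 RefSeq windows of the same length, 30.5% held the GC box, 2.04% the C/EBP motif, 5.59% the E box and 2.45% the EGR1 motif. The other motifs searched were TATAAA (12.9% of windows), the cAMP response element TGACGTCA (1.59%), its half-site TGACG, which the full element contains (18.2%), the AP-1 motif TGANTCA (6.34%), the NF-kappaB motif, GGG and TTTCC with 2 bases between them (1.3%), the PPAR element, AGGTCA repeated after 1 base (0.0508%), and the glucocorticoid element, AGAACA and TGTTCT with 3 bases between them (0.012%). None of these other motifs was found in either window. A match of letters does not show that a factor binds there.

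Ptgis, the prostacyclin synthase, fell on all 3 days. Its signal was 8.18, 7.82, 7.68 and 7.73 on the intact arrays, 7.44, 7.38, 7.06 and 7.47 on day 2 arrays, 7.07, 7.23, 6.68 and 6.95 on day 14 arrays and 6.82, 7.35, 7.14 and 7.41 on day 28 arrays. No array of any MIA day reached the lowest intact array, whereas the MIA days overlapped one another. Ptgis differed from intact by -0.51 ± 0.15 at day 2 (adjusted p = 0.0227), by -0.87 ± 0.15 at day 14 (adjusted p = 0.00151) and by -0.67 ± 0.15 at day 28 (adjusted p = 0.00847). The day 2 call was lost without intact replicate 1 or day 2 replicate 3 (adjusted p = 0.0756 and 0.0786). Prostacyclin synthase is known from vessel walls. Of 8 endothelial markers measured, 2, 4 and 3 were lower at days 2, 14 and 28 (11.2%, 6.01% and 6.45% of all probe sets). At day 2, 1 was higher (14.7% of all probe sets). The mean signal of the 8 markers was 9.83 to 10.01 on intact arrays, 9.55 to 9.91 on day 2 arrays, 9.51 to 9.70 on day 14 arrays and 9.49 to 9.67 on day 28 arrays. Of 6 smooth muscle and pericyte markers, 5, 1 and 1 were lower at days 2, 14 and 28 (11.2%, 6.01% and 6.45% of all probe sets). The part of either list in the Ptgis difference was not tested.

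Ptgds, the lipocalin-type synthase of prostaglandin D2, passed the threshold at day 2 alone, and its probe set was dimmer than the median of the array. Its signal was 6.29, 5.96, 6.13 and 6.37 on the intact arrays, 5.71, 5.66, 5.80 and 5.91 on day 2 arrays, 6.10, 5.90, 5.54 and 5.92 on day 14 arrays and 6.13, 6.17, 6.03 and 5.83 on day 28 arrays. Only day 2 lay wholly below the intact arrays, with a difference of -0.41 ± 0.12 (adjusted p = 0.0212) that was lost without intact replicate 1 or 4 or day 2 replicate 1 or 2 (adjusted p = 0.0503 to 0.0688). The differences at days 14 and 28 were -0.32 (interval -0.58 to -0.06, adjusted p = 0.0974) and -0.15 (interval -0.41 to 0.12, adjusted p = 0.535).

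The breakdown enzyme had the largest increase of the 10 genes at days 2 and 14, and at day 28 it stood beside Ptgs2. Hpgd, which encodes the dehydrogenase that starts the inactivation of prostaglandins, had a signal of 6.12, 6.59, 6.45 and 6.34 on the intact arrays, 8.11, 8.09, 8.43 and 8.01 on day 2 arrays, 8.11, 8.09, 8.60 and 8.89 on day 14 arrays and 7.79, 7.09, 8.01 and 8.27 on day 28 arrays. All 12 MIA arrays lay above all intact arrays. Hpgd averaged 8.16 ± 0.18 on day 2 arrays, 8.42 ± 0.39 on day 14 arrays and 7.79 ± 0.51 on day 28 arrays, against 6.38 ± 0.20 in intact animals. It was 3.43-fold higher at day 2 (difference 1.78 ± 0.23, adjusted p = 3.74e-05), 4.13-fold higher at day 14 (difference 2.04 ± 0.23, adjusted p = 4.79e-05) and 2.66-fold higher at day 28 (difference 1.41 ± 0.23, adjusted p = 0.000669). No difference in Hpgd between MIA days passed the threshold (adjusted p = 0.278 to 0.551). The lowest day 28 array, replicate 2, was also the one with the highest marrow granulocyte signal of its group. In the order of the Hpgd signals above, the marrow means were 7.24, 9.46, 7.93 and 6.68 on day 28 arrays. On day 14 arrays they were 7.52, 9.94, 8.59 and 7.67. The part of marrow in the Hpgd signal was not tested. Without day 28 replicate 2 the day 28 difference was 1.65 (adjusted p = 9.71e-05), a rise that leaving out the lowest array must bring.

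The 250 bases before the Hpgd start, chr16:39034832-39035081 on the minus strand of GRCr8, are shown because no other of the 10 transcripts rose as much at days 2 and 14.
Hpgd: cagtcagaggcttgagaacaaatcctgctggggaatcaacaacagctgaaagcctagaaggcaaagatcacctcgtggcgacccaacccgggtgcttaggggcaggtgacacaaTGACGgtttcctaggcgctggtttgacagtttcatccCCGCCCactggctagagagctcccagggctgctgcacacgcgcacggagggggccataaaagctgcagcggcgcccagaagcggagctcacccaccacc
The capitals mark the half-site TGACG and, on the opposite strand, a GC box (CCGCCC). Of the 10 genes, 9 had a window in the RefSeq table, and 6 of these held a GC box (Ptgs2, Ptges, Ptgds, Hpgd, Ptger1 and Ptger3). The half-site was found in the Hpgd window alone among the 9.

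Among the receptors of prostaglandin E2, Ptger3, which encodes the EP3 receptor that lowers cyclic AMP, fell the most of the 10 genes. It is among the genes that the study selected for change on these same arrays, so its direction here is not independent evidence. Its signal was 8.46, 9.09, 9.10 and 9.63 on the intact arrays, 7.67, 7.38, 7.25 and 7.71 on day 2 arrays, 7.10, 7.25, 6.99 and 6.18 on day 14 arrays and 5.91, 6.52, 5.78 and 5.88 on day 28 arrays. The intact arrays lay above all others, day 28 did not overlap day 2, and day 14 overlapped both other MIA days. Ptger3 was 2.96-fold lower than intact at day 2 (adjusted p = 0.000314), 4.56-fold lower at day 14 (adjusted p = 7.14e-05) and 8.26-fold lower at day 28 (difference -3.05 ± 0.26, adjusted p = 2.69e-06). Day 28 was lower than day 2 by a difference of -1.48 ± 0.26 (adjusted p = 0.000583), whereas the steps of day 14 against day 2 (-0.62, adjusted p = 0.136) and of day 28 against day 14 (-0.86, adjusted p = 0.196) did not pass.

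Fat cell markers moved along with Ptger3. Of 12 markers, day 2 had 11 below intact (11.2% of all probe sets). Days 14 and 28 had all 12 below intact (6.01% and 6.45% of all probe sets), and no marker was above it on any day. Their mean signal was 9.56 to 10.45 on intact arrays, 8.75 to 9.14 on day 2 arrays, 8.20 to 8.74 on day 14 arrays and 6.94 to 7.32 on day 28 arrays. Within the intact group, replicate 1 had both the lowest Ptger3 (8.46) and the lowest marker mean (9.56), and replicate 4 both the highest Ptger3 (9.63) and the highest marker mean (10.45). Day 2 replicate 4 was highest and replicate 3 lowest of their group for both Ptger3 (7.71 and 7.25) and the marker mean (9.14 and 8.75). Day 14 replicate 4 was lowest for both (6.18 and 8.20), while replicate 2 had the highest Ptger3 and replicate 1 the highest marker mean. At day 28, by contrast, replicate 2 had the highest Ptger3 (6.52) and the lowest marker mean (6.94, close to 6.99 and 6.96 on replicates 1 and 4). There replicate 3 had the lowest Ptger3 (5.78) and the highest marker mean (7.32). The part of fat tissue in the Ptger3 difference was not tested.

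Ptger4, which encodes the EP4 receptor that raises cyclic AMP, was higher on all 3 days. Its signal was 8.80, 8.82, 8.65 and 8.49 on the intact arrays, 9.43, 9.47, 9.59 and 9.39 on day 2 arrays, 9.85, 9.67, 10.07 and 10.21 on day 14 arrays and 9.87, 9.58, 9.71 and 9.78 on day 28 arrays. All MIA arrays lay above all intact arrays, and day 14 lay wholly above day 2. The difference from intact was 0.78 ± 0.11 at day 2 (adjusted p = 0.000125), 1.26 ± 0.11 at day 14 (2.39-fold, adjusted p = 1.02e-05) and 1.05 ± 0.11 at day 28 (adjusted p = 2.94e-05). Day 14 was higher than day 2 by 0.48 (adjusted p = 0.00946), and days 28 and 14 differed by -0.21 (interval -0.46 to 0.03, adjusted p = 0.504).

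Ptger2, which encodes EP2, the other receptor that raises cyclic AMP, was highest at day 2. Its signal was 6.65, 6.69, 6.14 and 6.96 on the intact arrays, 7.52, 7.41, 7.52 and 7.60 on day 2 arrays, 7.00, 6.96, 7.00 and 7.32 on day 14 arrays and 7.03, 7.01, 6.91 and 6.89 on day 28 arrays. Day 2 lay above all other arrays, while day 28 overlapped the intact group through intact replicate 4. Ptger2 differed from intact by 0.90 ± 0.14 at day 2 (adjusted p = 0.00015), by 0.46 ± 0.14 at day 14 (adjusted p = 0.031) and by 0.35 ± 0.14 at day 28 (adjusted p = 0.106). The day 14 call was lost without intact replicate 1 or 3 or day 14 replicate 1 or 4 (adjusted p = 0.0502 to 0.105), and day 28 passed without intact replicate 4 (adjusted p = 0.0278). Day 28 was lower than day 2 by a difference of -0.55 (adjusted p = 0.00784). Day 14 was lower than day 2 by a difference of -0.44 (adjusted p = 0.0407), a call that was lost on leaving out any of 10 single arrays (adjusted p = 0.0516 to 0.0997). Macrophage and monocyte markers were also highest at day 2, when 10 of 13 were higher than intact and none lower (26.0% of all probe sets called). On day 14 arrays 3 were higher and 1 lower (15.1% called), and on day 28 arrays 4 were higher and 2 lower (14.2% called). Their mean signal was 9.48 to 9.69 on intact arrays, 10.29 to 10.60 on day 2 arrays, 9.47 to 9.80 on day 14 arrays and 9.27 to 9.52 on day 28 arrays. Their part in the Ptger2 difference was not tested.

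Ptger1, which encodes the EP1 receptor that raises cellular calcium, was lower at day 2 alone. Its signal was 7.75, 7.53, 7.67 and 7.67 on the intact arrays, 6.78, 7.15, 7.25 and 7.21 on day 2 arrays, 7.88, 7.53, 7.54 and 7.74 on day 14 arrays and 8.13, 7.56, 7.71 and 7.71 on day 28 arrays. The day 2 arrays lay below all others, and the remaining 3 groups overlapped. The difference from intact was -0.56 ± 0.13 at day 2 (adjusted p = 0.00536), 0.02 at day 14 (interval -0.26 to 0.30, adjusted p = 0.943) and 0.12 at day 28 (interval -0.16 to 0.40, adjusted p = 0.653). Against day 2, day 14 was higher by 0.58 (adjusted p = 0.007) and day 28 by 0.68 (adjusted p = 0.00145). Smooth muscle and pericyte markers were likewise lowest at day 2, when 5 of 6 were lower than intact, against 1 of 6 at days 14 and 28 (11.2%, 6.01% and 6.45% of all probe sets). Their mean signal was 10.20 to 10.46 on intact arrays, 9.65 to 9.88 on day 2 arrays, 10.14 to 10.55 on day 14 arrays and 10.05 to 10.31 on day 28 arrays. Other marker lists also had their lowest group mean at day 2. These were fibroblast (11.08, against 11.41 in intact animals), chondrocyte (7.48 against 8.65), osteoblast (9.13 against 9.59) and skeletal muscle markers (8.20 against 9.06). The part of any of these lists in the Ptger1 difference was not tested.

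**Figure D3:**
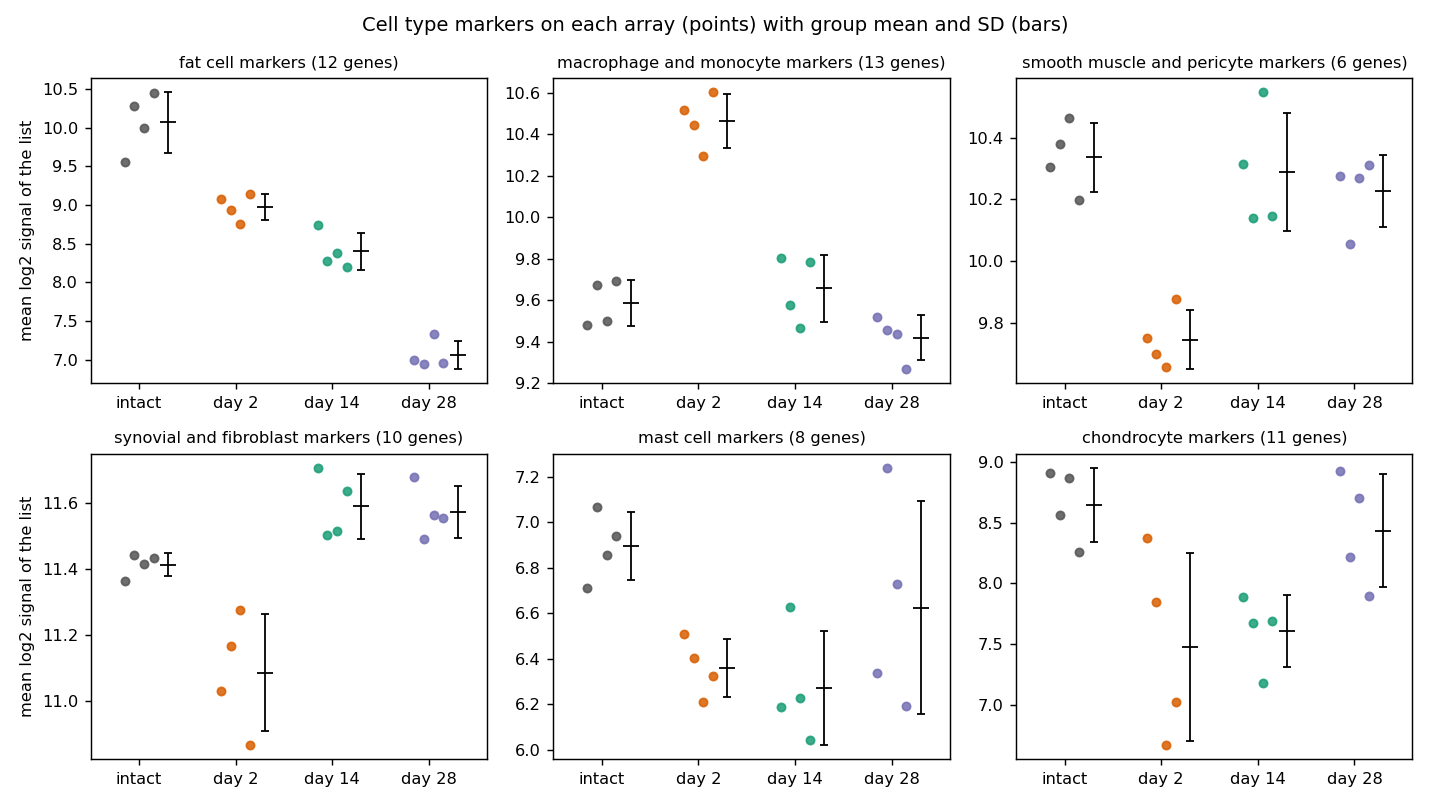
Mean log2 signal of 6 lists of cell type markers on each array, by group in order of time, with the group mean and SD (n = 4 arrays per group). The vertical axis differs between panels. Fat cell markers were highest in the intact group and lowest at day 28, macrophage markers were highest at day 2, and smooth muscle markers were lowest at day 2.

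The MIA days were also compared with one another. For day 14 against day 2, 6 of the 10 genes were called, beside 14.5% of all probe sets. Ptgs2, Ptges, Ptger1 and Ptger4 were higher (6.71% of all probe sets) and Ptgs1 and Ptger2 lower (7.83% of all probe sets). For day 28 against day 2, 6 were called, beside 22.5% of all probe sets. Ptgs2, Ptges and Ptger1 were higher (10.4% of all probe sets) and Ptgs1, Ptger2 and Ptger3 lower (12.2% of all probe sets). For day 28 against day 14, limma called none of the 10, beside 0.461% of all probe sets (0.188% higher and 0.273% lower), and neither did the methods' test after adjustment, while 4 had an unadjusted p under 0.05 (Ptgs2, Ptges, Hpgd and Ptger3). The arrays did not overlap for 6 genes between days 14 and 2, 6 between days 28 and 2 and 2 between days 28 and 14, beside 19.9%, 27.3% and 7.63% of all probe sets. Hpgd, Ptgis and Ptgds were called in none of the comparisons between MIA days.

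Among the phospholipases that release arachidonate, 8 of 9 listed genes were measured, of which, relative to intact, 2 rose and 2 fell by day 2, 1 rose and 2 fell by day 14, and 1 rose and 2 fell by day 28. Over all probe sets, 26.0%, 15.1% and 14.2% were called in either direction on these days. Pla2g4a, the cytosolic phospholipase specific for arachidonate, was higher by 1.09 ± 0.08 at day 2 (adjusted p = 2.64e-07), 0.45 at day 14 (adjusted p = 0.00124) and 0.41 at day 28 (adjusted p = 0.00224). The secreted enzyme Pla2g2a was lower on the same days, by differences of -1.38, -1.36 and -1.80 (adjusted p = 0.00101, 0.00259 and 0.000302). Pla2g5, also secreted, was lower at days 2 and 14 (-1.02 and -0.83, adjusted p = 0.000815 and 0.00761). Pla2g15, a phospholipase of the lysosome, was higher at day 2 (0.85, adjusted p = 6.16e-06) and lower at day 28 (-0.35, adjusted p = 0.0147).

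Of the other enzymes of synthesis, 7 were measured, of which 4 rose and 1 fell by day 2, 3 rose and 1 fell by day 14, and 2 rose and 1 fell by day 28. The share of all probe sets called in either direction was 26.0%, 15.1% and 14.2%. Hpgds, the haematopoietic synthase of prostaglandin D2, was the gene that was lower each time, at 6.38 on average on day 2 arrays, 6.39 on day 14 arrays and 6.54 on day 28 arrays, against 8.07 in intact animals (differences -1.69, -1.68 and -1.53, adjusted p = 3.13e-05, 0.00012 and 0.000197). Hpgds is known from mast cells. Of 8 mast cell markers measured, 4, 3 and 2 were lower at days 2, 14 and 28 (11.2%, 6.01% and 6.45% of all probe sets) and none was higher. Their mean signal was 6.71 to 7.07 on intact arrays, 6.21 to 6.51 on day 2 arrays, 6.04 to 6.63 on day 14 arrays and 6.19 to 7.24 on day 28 arrays, and their part in the Hpgds difference was not tested. Ptges3, the cytosolic synthase of prostaglandin E2 that is also a cochaperone, was higher at days 2 and 14 (0.78 and 0.46, adjusted p = 0.000146 and 0.0149). The membrane-associated Ptges2 was higher at day 2 (0.30, adjusted p = 0.0337). Tbxas1, the thromboxane synthase, was higher at days 2 and 28 (0.95 and 0.55, adjusted p = 0.000113 and 0.015). It is known from macrophages and platelets, and the part of the macrophage markers, whose values stand beside Ptger2, was not tested. Cbr1, a carbonyl reductase that acts on prostaglandin E2, was higher on all 3 days (0.34, 0.44 and 0.70, adjusted p = 0.0432, 0.0184 and 0.000857). Akr1b1, an aldo-keto reductase, passed at day 14 alone (0.25, adjusted p = 0.0312), and Prxl2b, a synthase of prostaglandin F2alpha, was within 0.12 of the intact level on all 3 days (adjusted p = 0.449 to 0.843).

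**Figure D4:**
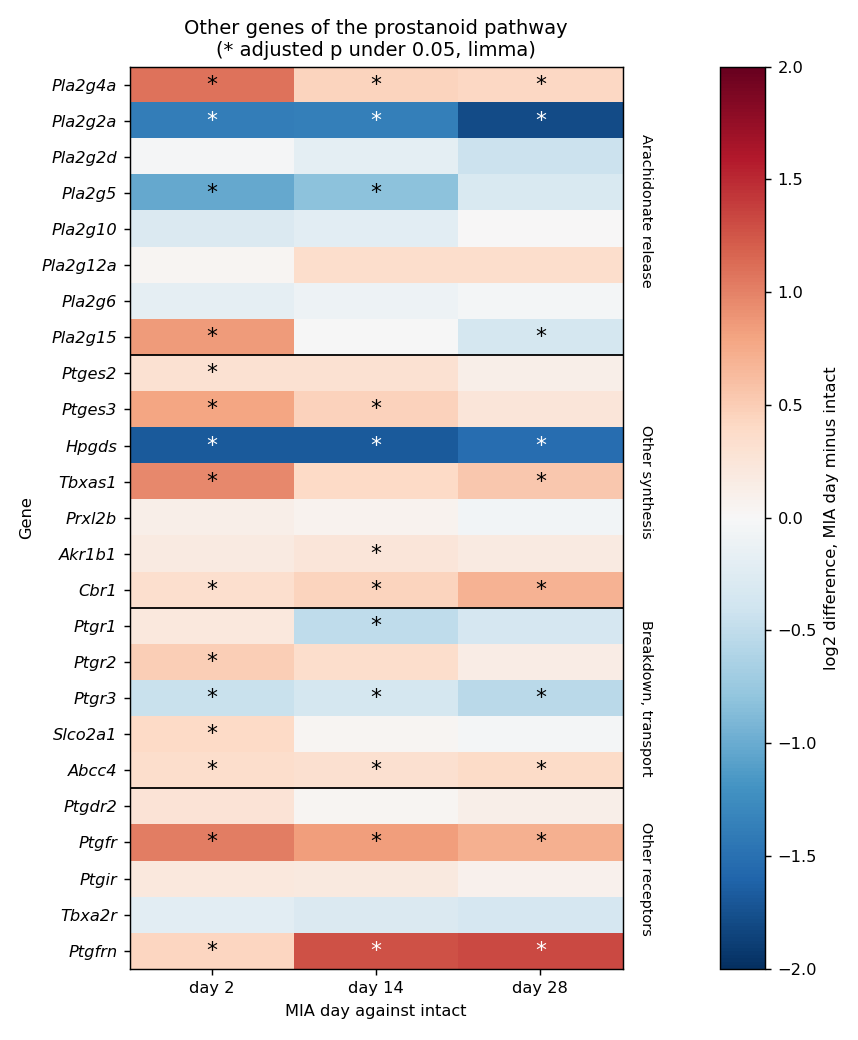
Log2 difference of MIA days 2, 14 and 28 from intact for 25 other genes of arachidonate release, prostanoid synthesis, breakdown, transport and reception. Red is higher and blue lower than intact, and a star marks an adjusted p under 0.05. Hpgds, Pla2g2a and Ptgr3 were lower and Pla2g4a, Cbr1, Abcc4, Ptgfr and Ptgfrn higher on all 3 days.

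Beyond Hpgd, 5 genes of breakdown and transport were measured, of which 3 rose and 1 fell by day 2, 1 rose and 2 fell by day 14, and 1 rose and 1 fell by day 28. On the same days 26.0%, 15.1% and 14.2% of all probe sets were called in either direction. Abcc4, a pump that exports prostaglandin E2, was higher on all 3 days (0.35, 0.32 and 0.39, adjusted p = 0.0067, 0.0199 and 0.00638). Slco2a1, the uptake carrier that brings prostaglandins to Hpgd, was higher at day 2 (0.40, adjusted p = 0.0226) and differed from intact by 0.04 and -0.04 at days 14 and 28 (adjusted p = 0.867 and 0.908). The prostaglandin reductases, which act on the product of Hpgd, differed in direction. Ptgr2 was higher at day 2 (0.50, adjusted p = 0.0445), Ptgr1 was lower at day 14 (-0.51, adjusted p = 0.0226), and Ptgr3 was lower on all 3 days (-0.45, -0.35 and -0.53, adjusted p = 0.0054, 0.0354 and 0.00317).

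Of 5 other genes of reception measured, 2 were higher and none lower on each day. Across all probe sets, 14.7%, 9.13% and 7.76% were higher at days 2, 14 and 28. Ptgfr, the receptor of prostaglandin F2alpha, was higher by 1.03 at day 2 (adjusted p = 0.00107), 0.84 at day 14 (adjusted p = 0.00921) and 0.72 at day 28 (adjusted p = 0.0218). Ptgfrn, a membrane protein that associates with that receptor, was higher by 0.43, 1.28 and 1.31 (adjusted p = 0.0064, 4.63e-06 and 1.63e-06), and the study selected it for change on these arrays, as it did Ptger3. The prostacyclin receptor Ptgir, the thromboxane receptor Tbxa2r and the prostaglandin D2 receptor Ptgdr2 did not pass on any day, with differences between -0.33 and 0.27.

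The leukotriene and lipoxygenase genes, draw on the same arachidonate. Of 12 measured, 2 rose and 1 fell by day 2, none rose and 4 fell by day 14, and none rose and 2 fell by day 28, where 26.0%, 15.1% and 14.2% of all probe sets were called in either direction. Alox15, an arachidonate lipoxygenase, was lower at days 14 and 28 (-1.97 and -2.55, adjusted p = 0.0106 and 0.0019). Ltc4s, the leukotriene C4 synthase, was lower at days 2 and 14 (-1.26 and -0.68, adjusted p = 0.000129 and 0.0228). Alox5, the enzyme that starts leukotriene synthesis, was lower at day 14 (-0.77, adjusted p = 0.0132), and Lta4h, which makes leukotriene B4, was higher at day 2 (0.70, adjusted p = 0.000183).

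Of 19 cytokines, receptors and factors known to induce or restrain Ptgs2 and Ptges, 10 rose and 5 fell by day 2, 6 rose and 2 fell by day 14, and 6 rose and none fell by day 28. Beside these stand 26.0%, 15.1% and 14.2% of all probe sets called in either direction. The counts mix factors that induce with factors that restrain, so they have no single meaning. The genes named next had the largest differences and were all higher at day 2, so none of the 5 that fell is among them. Il1b, a strong inducer of Ptgs2 in joint cells, was highest at day 2. On that day Ptgs2 had not passed the threshold (adjusted p = 0.132), although all its arrays lay above all intact arrays. Il1b averaged 7.13 on day 2 arrays, 6.30 on day 14 arrays and 5.82 on day 28 arrays, against 5.78 in intact animals (differences 1.34, 0.52 and 0.04, adjusted p = 3.85e-07, 0.00292 and 0.878). Ptgs2 averaged 8.07, 8.55 and 9.13 on the same days, against 7.74 in intact animals. The part of Il1b in the Ptgs2 difference was not tested. Il6 was higher on all 3 days (2.81, 3.06 and 1.72, adjusted p = 5.99e-05, 0.000103 and 0.00648), as was Il1rn, the antagonist of the IL-1 receptor (1.40, 1.73 and 1.15, adjusted p = 0.000604, 0.00031 and 0.00548). Tlr2, a receptor of microbial lipoproteins, was higher at day 2 (1.30, adjusted p = 1.64e-06), and at days 14 and 28 it differed by 0.36 and 0.23 (adjusted p = 0.0521 and 0.237).

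The genes with the course most like each of the 10 were sought among 18165 others by Pearson's r over the 16 arrays. These values are given as a description, since the arrays of a group share their condition, and r of the deviations from the group means stands second. Ptgs2 was most like Coq10b (r = 0.957, 0.783 within groups), Fos (0.947, 0.749) and Myo1e (0.936, 0.619). Ptges was most like Wnt9a (0.971, 0.844), Prnp (0.965, 0.695) and Prrx2 (0.96, 0.803), and Hpgd most like Ergic2 (0.97, 0.822), Dram1 (0.963, 0.73) and Emd (0.952, 0.72). Ptger3 was most like Pc (0.981, 0.794), Dgat2 (0.979, 0.843) and Bche (0.975, 0.741). Ptger4 was most like Snai1 (0.981, 0.865), Plpp5 (0.975, 0.791) and S1pr3 (0.968, 0.807), Ptger2 most like Psmd3 (0.944, 0.742), Psmc6 (0.943, 0.826) and Nuak2 (0.936, 0.748), and Ptger1 most like Gpr63 (0.952, 0.844), Clba1 (0.941, 0.778) and Kcnmb1 (0.93, 0.892). For Ptgs1 these were Phactr2 (0.945, 0.695), Xdh (0.942, 0.786) and Cdc14a (0.941, 0.799), for Ptgis Mtmr3 (0.893, 0.705), Gdpd2 (0.88, 0.652) and Bcor (0.877, 0.581), and for Ptgds Mlnr (0.93, 0.902), Mirlet7a1 (0.915, 0.834) and Sostdc1 (0.911, 0.836). No 2 of the 10 genes shared a closest gene.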

How the data were processed

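Per the labels, the deposited values are on the log2 scale, 1 per probe set and array. The labels credit them to RMA in oligo 1.36.1, and the methods name GeneChip Operating Software, background subtraction, quantile normalisation and log2 transformation, so signals are relative within 1 common distribution. The values were used as they stood. Depth is not defined for arrays, and 4 arrays per group limit the precision. Groups came from the labels and replicate numbers from the titles, which differ from the descriptions at day 2. That replicates come from separate animals rests on the methods.

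In R 4.3.3, limma 3.58.1 fitted 1 mean per group over all 16 arrays (eBayes, 2.86 prior degrees of freedom), with 6 comparisons and an F-test over the 3 with intact. p was adjusted by Benjamini-Hochberg over all 36685 probe sets. The code was tested on simulated data. Plots were drawn in Python 3.11.15 with matplotlib 3.10.9.

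The 10 genes, the pathway lists and the marker lists were chosen with earlier results of these data known. Named genes are the 10, whole lists of up to 7 genes, up to 4 genes with the largest called difference from longer pathway lists, and the 3 genes most like each of the 10 by r. The methods' t-test was taken as Welch's. Alternatives covered scaling, variance model, dim probe sets, test, replicate block, samples fitted, probe sets per gene and leaving out arrays. Promoter windows are from RefSeq (GRCr8). The list of genes changed in the study was read but none of its values was used.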

Additional observations from a re-analysis of the deposited data

Results flagged for a closer look

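For 12 of 30 pairs of a gene and 2 MIA days, the difference from intact was not the same on both days by the limma test of the days against each other. Of all probe sets, 14.5% were called for day 14 against day 2, 22.5% for day 28 against day 2 and 0.461% for day 28 against day 14. For day 14 against day 2 the differences were -0.53 for Ptgs1, 0.48 for Ptgs2, 0.70 for Ptges, 0.58 for Ptger1, -0.44 for Ptger2 and 0.48 for Ptger4. For day 28 against day 2 they were -0.42 for Ptgs1, 1.06 for Ptgs2, 1.07 for Ptges, 0.68 for Ptger1, -0.55 for Ptger2 and -1.48 for Ptger3. The Ptgs2 and Ptger2 calls for day 14 against day 2 were lost under 16 and 13 of 26 alternatives. For Ptges alone, both days passed against intact in opposite directions, lower at day 2 and higher at day 28.

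In 2 of 40 groups of 4 arrays, 1 array lay far from the other 3 by Dixon's criterion, which chance meets in about 1 of 20 groups. These were Ptgs2 on day 2 replicate 4 (8.21, gap 0.946 of the range) and Ptger2 on day 14 replicate 4 (7.32, gap 0.897 of the range).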

How the results depend on the processing

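No difference of the 10 genes that passed changed sign under any alternative, and of the values recomputed 1490 kept their side of the threshold, 60 lost a call and 4 gained one. The methods' t-test (Welch) after adjustment called 3 genes at day 2 against intact (Hpgd, Ptger3 and Ptger4), in place of 8, 5 in place of 7 at day 14, 5 in place of 7 at day 28, and 1 at day 14 against day 2 (Ptgs2), in place of 6. At the study's own threshold of p and fold change it called 1, 0 and 2 at days 2, 14 and 28. The calls it lost at days 14 and 28 were Ptgs2 (adjusted p = 0.0561) and Ptger2 (adjusted p = 0.264) at day 14 and Ptgis (adjusted p = 0.0904) and Hpgd (adjusted p = 0.0797) at day 28, and of these Ptger2 alone was also lost under other alternatives. Leaving out single arrays gave 5 to 8 genes at day 2 against intact (5 without intact replicate 1), 6 to 7 at day 14, 7 to 8 at day 28, 4 to 6 for day 14 against day 2, 0 to 0 for day 28 against day 14, 6 to 6 for day 28 against day 2, and 9 to 10 by the F-test.

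Deviations of same-numbered arrays of different groups correlated between -0.36 and 0.458 (median 0.00242, 7 of 24 pairs over 0.1). For arrays with other numbers the range was -0.3 to 0.327 (median -0.0102, 20 of 72 pairs over 0.1). This check cannot exclude a pairing, since the numbers at day 2 differ between titles and descriptions. With the replicate block 8, 7 and 7 genes were called against intact, 5 for day 14 against day 2, where Ptgs2 was lost (adjusted p = 0.085), 0 for day 28 against day 14 and 6 for day 28 against day 2. Chosen after seeing the data, leaving out the 4 arrays richest in muscle gave 8, 6 and 7 against intact, and leaving out replicate 2 of days 14 and 28 gave 8, 7 and 7. For day 14 against day 2 each of these 2 settings gave 4, in place of 6. Apart from the methods' t-test and leaving out intact replicate 1, no alternative moved a count of the 10 genes by over 1.5 times. Over all probe sets the methods' t-test called 5776, 1280 and 2051 against intact at days 2, 14 and 28, in place of 9526, 5556 and 5216, and 2768 for day 14 against day 2, in place of 5331. Fitting only the groups compared called 3380 at day 14, and leaving out the muscle-rich arrays 3630. For day 28 against day 14 the count was 0 to 335 over these and the remaining alternatives, in place of 169.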
